A study of Mus musculus with 2 samples.

Results

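The 33 genes described here encode the collagens and other matrix proteins of cartilage and the transcription factors, receptor and sulfation proteins of the chondrocyte, the cell that makes that matrix. They were listed by name, as were the other gene lists used below, with earlier results of these data known. All 33 were found among the 43346 Ensembl genes quantified in each of 2 total RNA-seq libraries. The libraries came from the embryonic facial prominence, from which face and jaws develop, of healthy B6NCrl mouse embryos of 15.5 days. Tissue of 78 embryos went into replicate 1 and of 62 into replicate 2, with males and females mixed in each, and both carried the same donor label. A ratio between them therefore measures 2 pools, not single embryos. No treatment, mutation or second group was labelled, so the data give levels and the difference between the 2 pools, without a test between conditions.

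Cartilage is built on fibrils of type II collagen, with type XI collagen inside them and type IX collagen on their surface, and a gel of aggrecan bound to hyaluronan between them. SOX9, together with SOX5 and SOX6, turns on most of these matrix genes in chondrocytes. In the embryonic face, cartilage forms the nasal capsule, Meckel's cartilage of the lower jaw and the cranial base. Chondrocytes that enlarge and stop dividing, called hypertrophic, switch to type X collagen.

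Expected counts, the authors' estimate of reads per gene, summed to 37128010 in replicate 1 and 38543623 in replicate 2. Levels are given in TPM, the deposited transcript abundance, which is per length and so allows genes to be compared within a library. All 11 facial mesenchyme markers chosen for the tissue were at 1 TPM or more in both libraries, led by Msx1 at 152 ± 9.16 TPM (SD, n = 2), Osr2 at 109.8 ± 14.1 TPM and Prrx1 at 82.6 ± 5.06 TPM. In these bulk pools fewer cells of a type and less RNA per cell cannot be told apart.

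Of the 33 cartilage genes, 30 were at 1 TPM or more in both libraries, against 65.4% of protein coding genes and 36.4% of all Ensembl genes. Their median was 17.2 TPM in replicate 1 and 25.1 TPM in replicate 2, while the median of all 21474 protein coding genes, silent ones included, was 6.10 ± 0.138 TPM. By role, the median was 64.9 ± 14.3 TPM for the 7 collagen genes, 11.8 ± 4.50 TPM for the 16 other matrix genes, 13.2 ± 2.48 TPM for the 7 transcription factors and partners, and 27.1 ± 7.74 TPM for the 3 receptor and sulfation genes. Col10a1, Clec3a and Nkx3-2 were the members under 1 TPM in at least 1 library.

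**Figure D1:**
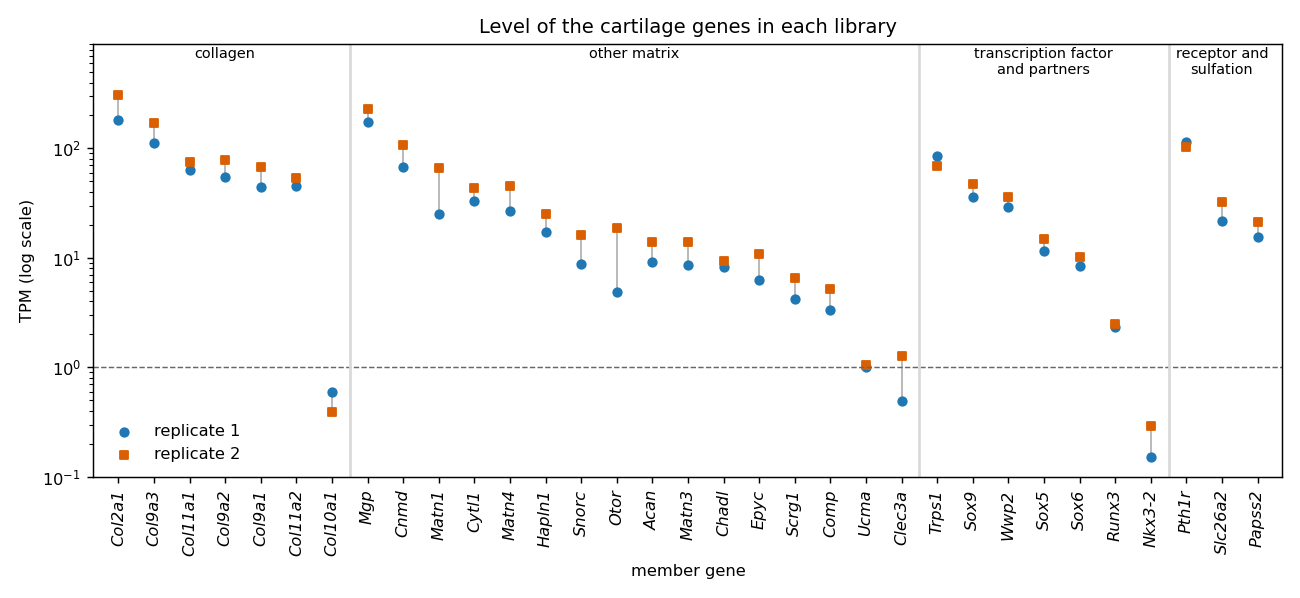
TPM on a log axis of each of the 33 cartilage genes in replicate 1 (circles) and replicate 2 (squares), grouped by role and ordered by mean level; the dashed line marks 1 TPM. Col2a1 leads the collagens at 182 and 305 TPM, and most pairs of points have replicate 2 above replicate 1, with Pth1r, Trps1 and Col10a1 the other way round.

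Col2a1, the single chain of type II collagen, stood at 182 TPM in replicate 1 and 305 TPM in replicate 2. Among protein coding genes it ranked at position 768 in replicate 1 and 408 in replicate 2. The gene lies on chromosome 15 in the GENCODE annotation from 97975602 to 98004695 on the minus strand (GRCm38). Its second exon is an alternative cassette: transcripts that keep it (type IIA) encode a cysteine-rich domain in the propeptide, made mainly by precursors of chondrocytes, and transcripts that skip it (type IIB) are those of differentiated chondrocytes. The exon is shown because the 2 transcript forms differ by it. Exon 2 of 54 in the longer transcript covers 204 bases of coding sequence at chr15:98000403-98000606 on the minus strand. It is printed from the GENCODE transcript, with its 10 cysteine codons in capitals.
Col2a1 exon 2: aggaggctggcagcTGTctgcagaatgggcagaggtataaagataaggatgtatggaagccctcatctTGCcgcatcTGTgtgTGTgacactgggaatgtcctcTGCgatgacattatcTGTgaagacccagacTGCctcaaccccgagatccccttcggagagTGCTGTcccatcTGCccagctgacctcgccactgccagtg

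Transcripts without exon 2 stood at 148 TPM in replicate 1 and at 248 TPM in replicate 2, and those with it at 30.6 and 52.9 TPM. Both forms were therefore higher in replicate 2, and the exon-containing share of the 2 forms was 17.1% and 17.6% (17.4 ± 0.320%). That share differed little between pools whose total Col2a1 differed by 1.69-fold relative to the typical gene. Fold values here and below, unless given by TPM, follow a scaling that sets the bulk of genes to no difference. With spike-in RNA as the scale instead, the log2 ratio of Col2a1 was 0.10. The estimates assign whole reads to full transcript models, and junction reads over the exon were not analysed here.

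Type IX collagen is a trimer of 1 chain each from Col9a1, Col9a2 and Col9a3. Col9a3 stood at 111 and 172 TPM in replicates 1 and 2, Col9a2 at 54.8 and 78.3 TPM, and Col9a1 at 44.4 and 68.1 TPM. All 3 chains were higher in replicate 2, by 1.53-fold for Col9a3, 1.45-fold for Col9a2 and 1.53-fold for Col9a1. Transcripts of the chains were not equal in number: Col9a3 over Col9a2 was 2.03 in replicate 1 and 2.19 in replicate 2, and Col9a1 over Col9a2 was 0.810 and 0.870. A noncoding model of 752 bases took 14.8% and 14.7% of the Col9a2 transcripts by TPM, but only 3.91% and 3.82% of its counts. Ratios from coding transcripts alone depend on that estimate. With coding transcripts alone, Col9a1 over Col9a2 was 0.967 and 1.02, and Col9a3 over Col9a2 stayed near 2.00 and 2.07.

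Col9a1, on chromosome 1 from 24177610 to 24252684 on the plus strand, has 2 starts. The long form begins upstream and encodes the large globular domain, NC4, that projects from the fibril, and the short form begins at a later start and lacks that domain. The long form stood at 19.3 and 28.7 TPM in replicates 1 and 2, and the short form at 24.97 and 39.3 TPM. The long form thus took 43.6% and 42.2% of the pair (42.9 ± 0.998%), with the short form the more abundant in both libraries. The short form is known from the eye. Lens and retina markers summed to 14.3 and 19.1 TPM over 5 genes, of which Cryaa stood at 6.76 and 9.84 TPM, Cryba1 at 4.84 and 5.67 TPM and Pax6 at 1.73 and 2.13 TPM. Their part in the short form was not tested.

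The 250 bases before each Col9a1 start are shown because the 2 forms are made from them (RefSeq, GRCm38.p6, chromosome 1, plus strand, at chr1:24177360-24177609 and chr1:24194953-24195202). Capitals mark any match, on either strand, to 5 motifs: letters bound by SOX factors in 2 versions, the TATA box, the GC box and the CCAAT box. The searched letters are spelled out with the promoter counts. A CCAAT box begins 18 bases before the short-form start, and the window of the long form holds no match.
Col9a1 long-form start: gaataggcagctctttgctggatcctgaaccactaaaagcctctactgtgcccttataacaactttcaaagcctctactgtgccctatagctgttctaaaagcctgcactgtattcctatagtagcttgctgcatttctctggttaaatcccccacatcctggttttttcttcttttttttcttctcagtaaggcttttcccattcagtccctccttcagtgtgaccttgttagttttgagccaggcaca
Col9a1 short-form start: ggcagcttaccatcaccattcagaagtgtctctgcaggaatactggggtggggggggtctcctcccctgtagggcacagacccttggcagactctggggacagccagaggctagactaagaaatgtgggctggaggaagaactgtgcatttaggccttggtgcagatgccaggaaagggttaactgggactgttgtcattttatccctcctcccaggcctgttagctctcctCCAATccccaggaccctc

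Type XI collagen combines the products of Col11a1 and Col11a2 with a chain made from Col2a1. Col11a1 stood at 63.3 TPM in replicate 1 and 75.04 TPM in replicate 2, and Col11a2 at 45.4 and 53.2 TPM. These chains were higher in replicate 2 by only 1.17-fold and 1.20-fold, compared with 1.69-fold for Col2a1. Col11a1 over Col2a1 was accordingly 0.348 in replicate 1 and 0.246 in replicate 2, while Col11a2 over Col11a1 was 0.717 and 0.709. Col11a1 and Col11a2 thus kept nearly the same proportion to each other in both pools and a lower proportion to Col2a1 in replicate 2. A model of Col11a1 marked for nonsense-mediated decay took 27.3% and 25.9% of its transcripts by TPM, and 11.8% and 11.3% of its counts. For Col11a2 a retained-intron model of 836 bases took 16.9% and 15.1% by TPM, but only 2.60% and 2.26% of the counts. With coding transcripts alone, Col11a2 over Col11a1 was 0.823 and 0.809, and Col11a1 over Col2a1 was 0.257 and 0.184.

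Col10a1, the collagen of hypertrophic cartilage, was low, at 0.600 TPM from 45 counts in replicate 1 and 0.390 TPM from 30 counts in replicate 2. The deposited credibility bounds of TPM, 0.435 to 0.778 and 0.254 to 0.527, overlapped. The gene shares exon positions with Nt5dc1 on the other strand, which held 418 and 501 counts, and the strand setting of the counting is not given in the sources used here. Foxa2, a forkhead factor of the same growth plate and hypertrophy list, was also low, at 0.34 and 0.39 TPM. The 3 most abundant genes of that list are not specific to cartilage. Ibsp, a bone sialoprotein that osteoblasts also make, stood at 622 ± 64.2 TPM, Spp1, osteopontin, at 349 ± 4.34 TPM, and Mef2c, a regulator of hypertrophy that muscle also expresses, at 64.8 ± 4.21 TPM.

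Among the other matrix genes, Mgp was the most abundant, at 173 TPM in replicate 1 and 228 TPM in replicate 2. Its product inhibits calcification and is also made by vessels and fibroblasts. Cnmd, which encodes the vessel-repelling membrane protein chondromodulin, stood at 68.1 and 107 TPM. Both were higher in replicate 2, by 1.31-fold and 1.61-fold. Aggrecan, the main proteoglycan of cartilage, was near the median of the other matrix genes, with Acan at 9.08 TPM from 1623 counts and 14.0 TPM from 2617 counts on a transcript of 7355 bases. Hapln1, the link protein that holds aggrecan to hyaluronan, stood at 17.2 and 25.1 TPM. Transcripts of the link protein gene thus outnumbered those of aggrecan in both libraries.

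The matrilins are adaptor proteins that join collagen fibrils to proteoglycans. Matn1 stood at 25.1 TPM in replicate 1 and 66.9 TPM in replicate 2, Matn4 at 26.8 and 45.8 TPM, and Matn3 at 8.60 and 14.0 TPM. The order of Matn1 and Matn4 was therefore opposite in the 2 pools, and Matn3 was the lowest in both. Comp, a glycoprotein of cartilage and tendon, was low, at 3.37 and 5.20 TPM. The 5 tendon markers summed to 149 and 125 TPM, of which the tendon membrane protein gene Tnmd was highest at 46.9 ± 0.834 TPM, followed by Thbs4 (32.7 ± 11.99 TPM) and Kera (31.9 ± 1.07 TPM). Their median ratio was 0.954-fold, and that of Comp was 1.54-fold. The part of tendon in the level of Comp was not tested.

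Small secreted and membrane proteins of chondrocytes made up the rest of the matrix group. Cytl1, a secreted cytokine-like protein, stood at 33.3 and 43.7 TPM, and Snorc, a membrane proteoglycan of chondrocytes, at 8.71 and 16.02 TPM. Scrg1 stood at 4.25 and 6.60 TPM. Epyc, a small leucine-rich proteoglycan of epiphyseal cartilage, stood at 6.29 and 10.8 TPM. Chadl, a leucine-rich relative of chondroadherin, stood at 8.18 and 9.28 TPM. Coding transcripts gave only 1.72 and 2.81 TPM of this, although they held 37.5% and 49.2% of its counts. The remainder fell on models marked for nonsense-mediated decay. L3mbtl2, which overlaps Chadl on the other strand, held 1208 and 1305 counts against 276 and 359 for Chadl, so the level of Chadl is uncertain.

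Ucma and Clec3a were at the edge of detection. Ucma, a Gla-rich protein of cartilage, had 17 and 20 counts, or 1.01 and 1.04 TPM, and the authors' estimates placed all of them on different transcripts in the 2 libraries, so its transcript shares cannot be read. Clec3a, a cartilage lectin, had 6 and 16 counts, or 0.490 and 1.27 TPM, with overlapping bounds of 0.187 to 0.989 and 0.739 to 1.96 TPM.

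Otor, which encodes the secreted protein otoraplin known from the cochlea and from cartilage, had the highest ratio of the members, at 4.87 TPM from 102 counts in replicate 1 and 18.9 TPM from 413 counts in replicate 2. Of the 5 inner ear markers, Oc90, an otoconial protein, differed most, with 1 count (0.07 TPM) in replicate 1 and 925 counts (23.0 TPM) in replicate 2. Of the other 4, Coch stood at 7.81 and 8.72 TPM, Otoa at 0.570 and 0.480 TPM, Otog at 0.170 and 0.190 TPM, and Tecta at 0.160 TPM in both. Their ratios by counts were 1.11-fold for Coch, 0.650-fold for Otoa, 1.12-fold for Otog and 1.28-fold for Tecta. The summed level of the list was 8.78 TPM in replicate 1 and 32.6 TPM in replicate 2, a difference that comes mostly from Oc90. The part of the inner ear in the level of Otor was not tested.

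Sox9 stood at 36.4 TPM in replicate 1 and 47.2 TPM in replicate 2, Sox5 at 11.4 and 14.95 TPM, and Sox6 at 8.48 and 10.2 TPM. Sox9 was the most abundant of the trio in both libraries. Relative to the typical gene all 3 were higher in replicate 2, by 1.30-fold, 1.28-fold and 1.16-fold, but the bounds of Sox5 overlapped. With spike-in RNA as the scale, the log2 ratios were -0.27 for Sox9, -0.29 for Sox5 and -0.44 for Sox6. For Sox5 coding transcripts made up only 38.1% and 34.3% of the TPM, or 4.35 and 5.13 TPM, although they held 60.03% and 66.4% of its counts. Short noncoding models weigh heavily in its TPM. All Sox6 transcripts were coding, with the leading model at 50.2% and 54.2%. Sox5 and Sox6 also act in other lineages, and bulk libraries do not separate those cells from chondrocytes.

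Wwp2, a ubiquitin ligase gene whose intron holds miR-140 and whose product works with SOX9, stood at 29.3 and 36.1 TPM. Trps1, a zinc finger repressor active in chondrocytes and in hair and facial mesenchyme, was the most abundant of the regulators, at 84.5 TPM in replicate 1 and 69.8 TPM in replicate 2. Relative to the typical gene it was lower in replicate 2, unlike the Sox genes, by 1.20-fold. Its bounds, 79.7 to 86.0 and 65.7 to 71.2 TPM, did not overlap. Runx3, a Runt factor of chondrocyte maturation that T cells and sensory neurons also use, stood at 2.33 and 2.50 TPM. Of the T cell markers, Cd3e had 2 and 5 counts, Cd8a 0 and 2, Cd4 13 and 22, and only Lck passed 1 TPM, at 4.39 and 5.37 TPM. All 6 markers of the neuron list were at 1 TPM or more in both libraries. The part of T cells or neurons in the level of Runx3 was not tested. Nkx3-2, a homeobox gene of early chondrogenesis and of the jaw joint, had 6 and 12 counts, or 0.15 and 0.29 TPM.

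Pth1r, the receptor that holds chondrocytes back from hypertrophy and is also abundant on osteoblasts, stood at 114 TPM in replicate 1 and 102 TPM in replicate 2, slightly lower in the latter, by 1.12-fold. Osteoblast markers, all 10 detected, summed to 4545 and 4617 TPM, led by Col1a1 at 3345 ± 13.2 TPM, with Ibsp and Spp1 next, and their part in the level of Pth1r was not tested. Papss2, which makes the sulfate donor for proteoglycans, stood at 15.4 and 21.2 TPM, and Slc26a2, the sulfate transporter, at 21.6 and 32.6 TPM. Slc26a2 was 1.51-fold higher in replicate 2 by TPM but 1.20-fold higher by counts. Its shortest abundant model, of 1101 bases, took 27.9% of the transcripts by TPM in replicate 1 and 41.0% in replicate 2. That model held 6.94% and 12.8% of the counts.

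The difference between the pools was then described for all members together, as the ratio of replicate 2 to replicate 1 from expected counts after TMM scaling, a scaling that sets the bulk of genes to no difference. It has 1 library on each side and no test. Of the 33 members 31 had the 10 counts in both libraries required for a ratio, and Clec3a and Nkx3-2 did not. The median member ratio was 1.37-fold (0.46 on the log2 scale), against 1.00-fold over all 18318 genes with a ratio. Of the 31, 28 were higher in replicate 2, against 50.1% of all genes. Another 3, Pth1r, Trps1 and Col10a1, were lower, against 49.9% of all genes.

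At 1.5-fold or more, 13 of 31 members were higher in replicate 2, where 4.78% of all genes were, and 1, Col10a1, was lower, where 4.31% were. At 2-fold the members higher were Matn1, by 2.67-fold, and Otor, by 3.83-fold, 2 of 31 against 1.16% of all genes, and 0 of 31 were lower, against 2.01%. The authors' credibility bounds, which cover only the estimate within a library, did not overlap and were higher in replicate 2 for 24 of the 31, against 7.64% of all genes. They did not overlap and were lower for 2, Pth1r and Trps1, against 9.01%. Bounds of the remaining 5 members, Col10a1, Sox5, Ucma, Runx3 and Chadl, overlapped. These counts measure how the 2 pools differed and say nothing about embryos within a pool.

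All of these directions are relative to the typical gene. With spike-in RNA as the scale instead of TMM, the median of all genes moved to -0.65 on the log2 scale and the median member to -0.19, so that 23 of the 31 members were below 0. Spike-ins took 2.91% of the counts in replicate 1 and 4.59% in replicate 2. A change of scale moves all ratios between a pair of libraries by nearly the same amount, so the 28 of 31 members above the median gene stay 28 under any of these scales, which adds no support to the direction.

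**Figure D2:**
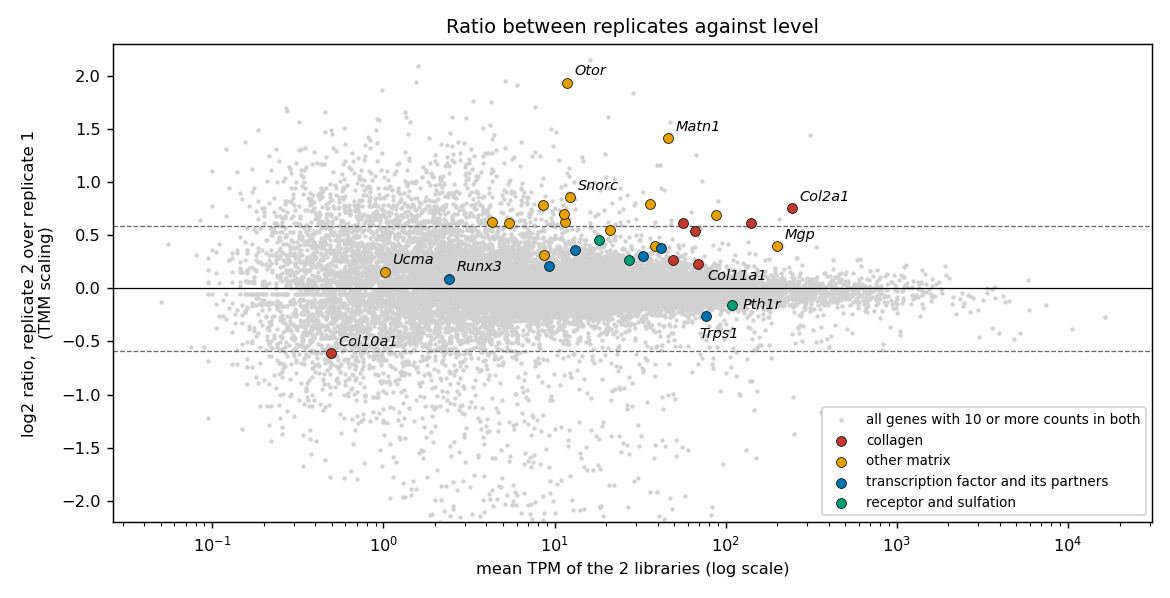
Log2 ratio of replicate 2 over replicate 1 after TMM scaling against mean TPM on a log axis, for 18318 genes (grey; 40 genes lie beyond the axis from -2.2 to 2.3) and the 31 cartilage genes with a ratio, coloured by role; dashed lines mark 1.5-fold. Matrix genes such as Col2a1, Snorc, Matn1 and Otor lie above the upper line, and Trps1, Pth1r and Col10a1 lie below 0; with spike-in scaling the points shift down together.

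The ratio was larger for matrix genes than for regulators, a difference that was not tested. Relative to the typical gene, 21 of the 22 collagen and other matrix genes with a ratio were higher in replicate 2, against 50.1% of all genes. The median of these matrix genes was 1.53-fold, and the summed level of the matrix genes was 900 TPM in replicate 1 and 1366 TPM in replicate 2. The sum was 0.0962% and 0.152% of the TPM of all genes. For the 6 transcription factors and partners with a ratio the median was 1.20-fold, and for the 3 receptor and sulfation genes it was also 1.20-fold. By counts 0 of these 9 reached 1.5-fold, where 4.78% of all genes were higher and 4.31% lower, so a count of 0 among 9 is near the background. By TPM, Slc26a2 reached 1.51-fold.

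The matrix ratios spread more widely than those of all genes, with quartiles at 0.39 and 0.74 on the log2 scale against -0.11 and 0.13. Of the 31 members 20 were within 0.32 of the median matrix ratio on the log2 scale, against 10.4% of all genes. That interval is centred on the members' own ratios and lies off the centre of all genes, so the difference in share follows from its place and is given as a description. They included 4 of 7 collagens, namely Col2a1 and the 3 type IX chains, and 12 of 15 other matrix genes. Acan (1.55-fold), Comp (1.54-fold), Scrg1 (1.54-fold), Col9a1 and Col9a3 were nearest to that median although their levels ran from 4.29 ± 1.29 TPM for Comp to 141 ± 42.9 TPM for Col9a3. Matn1 and Otor lay above that range. Col10a1, Col11a1, Col11a2, Ucma, Sox6, Trps1, Runx3, Pth1r and Slc26a2 lay below it.

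Other genes that act on cartilage matrix had ratios near that of the typical gene. Of the 20 chondroitin and sulfation enzymes, all detected, 7 were above 0, against 50.1% of all genes, and the median was 0.981-fold. None of these enzymes reached 1.5-fold, where 4.78% of all genes were higher and 4.31% lower, so that count is near the background. The most abundant were Ugdh, which makes the sugar precursor of chondroitin, at 96.9 ± 5.13 TPM, Papss1, the relative of Papss2, at 90.9 ± 0.375 TPM, and the sulfate donor transporter gene Slc35b2 at 71.9 ± 2.46 TPM. Of 13 growth plate and hypertrophy genes, with a median of 0.976-fold, none was 1.5-fold higher. In that list 1 gene, the collagenase gene Mmp13, was 1.5-fold lower, at 26.5 TPM in replicate 1 and 16.3 TPM in replicate 2. In a list of 13 these counts are also near the shares of all genes. Ihh, the signal of prehypertrophic chondrocytes, stood at 1.37 and 1.23 TPM, its partner Pthlh at 21.1 and 20.98 TPM, and the chondrocyte growth regulator Fgfr3 at 25.6 and 27.2 TPM.

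Matrix genes outside the 33 were mixed. Of 11 such genes 1 was 1.5-fold higher, against 4.78% of all genes, and none was 1.5-fold lower, against 4.31%. The higher gene was Chad, which encodes chondroadherin, at 5.98 TPM in replicate 1 and 9.45 TPM in replicate 2. The 3 most abundant were Fbln1 at 208 ± 1.42 TPM, Vcan, the versican of loose mesenchyme, at 80.2 ± 10.0 TPM, and Matn2 at 48.0 ± 2.03 TPM. Fbln1, Vcan and Matn2 are made by many connective tissues, and their ratios were 1.01-fold, 0.893-fold and 0.943-fold. Fmod, fibromodulin, was at 17.8 and 24.2 TPM.

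Markers of other tissues also differed between the pools, again relative to the typical gene, and with spike-in scaling their ratios move down together with those of the members. All 10 skeletal muscle markers were lower in replicate 2, with a median of 0.728-fold and a summed level of 4002 TPM in replicate 1 and 2988 TPM in replicate 2, led by Actc1 at 1038 ± 204 TPM, Acta1 at 917 ± 164 TPM and Myl1 at 546 ± 115 TPM. All 6 erythroid markers were lower too, with a median of 0.759-fold and sums of 14723 and 11017 TPM, led by the globin genes Hbb-bs at 5271 ± 1137 TPM, Hba-a1 at 3936 ± 814 TPM and Hbb-bt at 3596 ± 660.1 TPM. None of those 16 markers passed 1.5-fold, where 4.78% of all genes were higher and 4.31% lower. At any fold, 49.9% of all genes were lower. The 10 osteoblast markers had a median of 1.01-fold, with 1, Bglap, 1.5-fold lower at 28.6 and 14.5 TPM, against 4.31% of all genes. The 11 facial mesenchyme markers had a median of 1.12-fold and sums of 604 and 668 TPM. Of these 11, 9 were above 0, against 50.1% of all genes.

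A list of 8 nasal respiratory epithelium genes was chosen after these values were seen. Its median of 2.38-fold therefore only describes the chosen genes, and no count of them is set against all genes. The summed level of the list was 274 TPM in replicate 1 and 698 TPM in replicate 2. It included the secreted airway protein gene Bpifa1 at 168 and 457 TPM and the motile cilia regulators Foxj1 at 24.5 and 54.9 TPM and Mcidas at 4.45 and 10.8 TPM. No marker of the muscle, erythroid, osteoblast, facial mesenchyme or nasal lists had 0 counts in either library. The part of any of these tissues in the cartilage ratios was not tested.

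**Figure D3:**
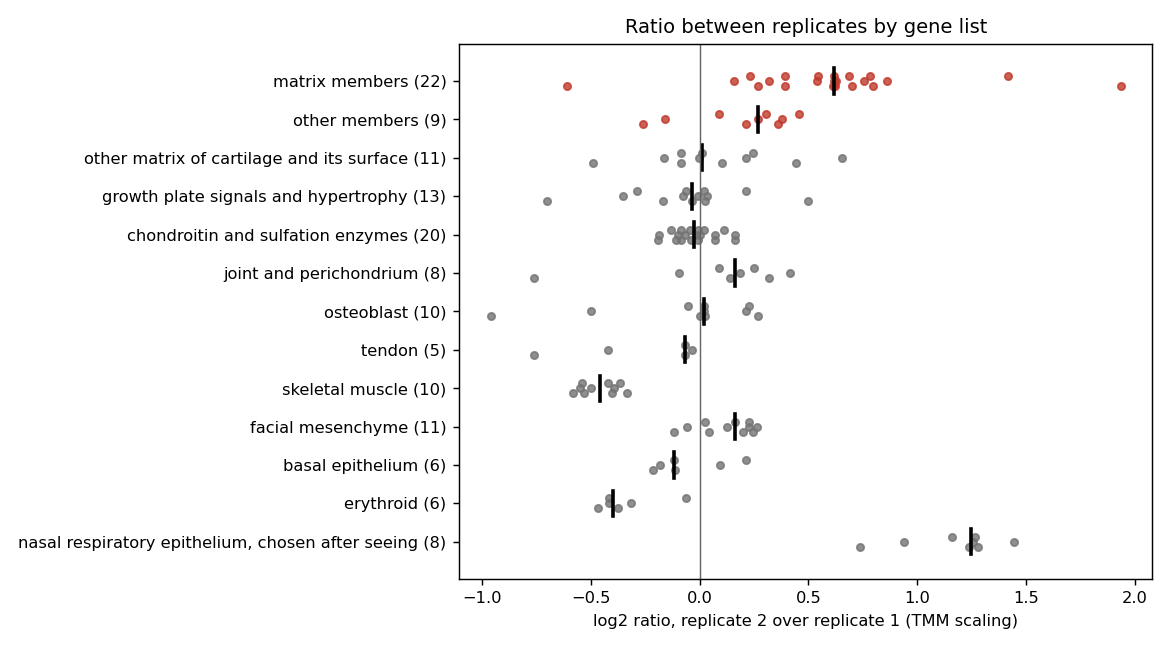
Log2 ratio of replicate 2 over replicate 1 after TMM scaling for each gene (points) and the median (bar) of the cartilage matrix genes, the other members and 11 further lists, with the number of genes in parentheses. The matrix genes have a median of 0.62. The nasal list lies above 0, but it was chosen after its values were seen and so is not ranked with the others. The muscle and erythroid lists lie below 0, and the sulfation enzymes and osteoblast genes lie around 0. Spike-in scaling would shift all points down together.

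Of the 33 members 15 had a single transcript in the tables and 18 had several. In 11 the leading transcript took under 80% in at least 1 library. Pth1r divided its transcripts between models of 14 and 15 exons with the same coding length, 67.0% and 71.2% on the leading one. Cnmd had a pair of coding models of 1014 and 1002 coding bases, at 49.7% and 48.1% for the first and 38.2% and 42.4% for the second. The longest Trps1 model took 39.8% and 39.9%. Shares of the leading transcript of Col2a1 (81.4% and 81.3%), Col9a1 (56.2% and 57.7%), Col11a1 (64.7% and 63.7%) and Trps1 differed by under 2 percentage points between the pools. It differed by more in 7 of the 18 members with several transcripts, namely Chadl (75.8% and 66.5%), Sox5 (24.2% and 29.3%), Sox6, Col11a2 (71.7% and 75.9%), Pth1r, Matn4 (95.9% and 92.98%) and Ucma. Slc26a2 is not counted there, because its leading model by mean share took 35.8% and 34.3%. Its other models did shift, from 27.9% to 41.0% for that of 1101 bases and from 35.8% to 24.1% for that of 7814 bases. Acan had a single model, and Runx3 had 100% and 98.6% on 1 model.

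**Figure D4:**
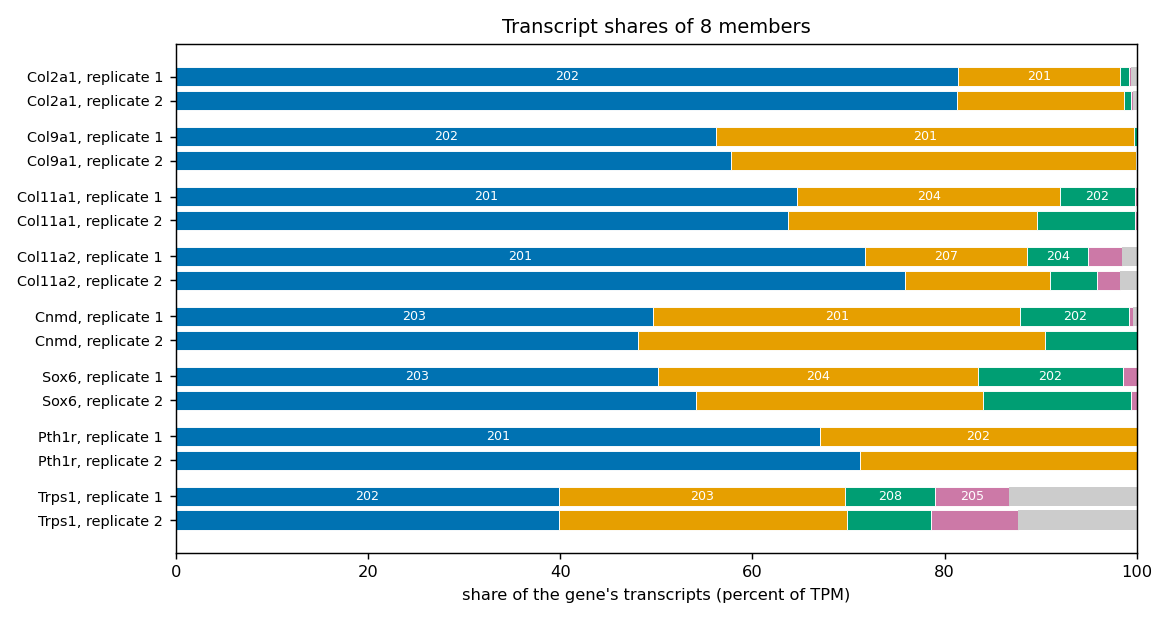
Share of each gene's transcripts (percent of TPM) taken by its 4 leading transcript models in each library, for 8 members; numbers in the bars are GENCODE model numbers and grey is the remainder. The bars of replicate 1 and replicate 2 are nearly the same for Col2a1 and Col9a1, whose leading models take 81.3% and 57.0% on average.

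RefSeq promoters were at hand for 23 of the 33 members, 35 windows in all. Col2a1 and Sox9 were among the members without one. A gene can have several windows, so the percents below are shares of windows and not of members. Of these 250-base windows, 4 held the SOX letters AACAAT on either strand, or 11.4%, against 9.42% of all 32851 windows, and 6 held the other SOX letters, ACAATG, or 17.1%, against 10.7%. The GC box GGGCGG occurred in 42.9% of the members' windows and 32.7% of all windows. The TATA box TATAAA occurred in 14.3% against 12.4%, and the CCAAT box in 34.3% against 33.8%. The SOX letters can overlap each other in 1 stretch. The windows with AACAAT belong to Epyc, Papss2 and Sox6, and those with ACAATG to Chadl, Epyc, Sox5 and Sox6. A match is a description of letters, and a window without SOX letters says nothing about SOX9. The windows of Matn1 and Otor, the members with the highest ratios, are shown with the same 5 motifs in capitals (RefSeq starts, chr4:130944135-130944384 and chr2:143078143-143078392, plus strand). The window of Matn1 holds a GC box on the opposite strand that begins 206 bases before the start, and that of Otor a TATAAA 35 bases before it.
Matn1 start: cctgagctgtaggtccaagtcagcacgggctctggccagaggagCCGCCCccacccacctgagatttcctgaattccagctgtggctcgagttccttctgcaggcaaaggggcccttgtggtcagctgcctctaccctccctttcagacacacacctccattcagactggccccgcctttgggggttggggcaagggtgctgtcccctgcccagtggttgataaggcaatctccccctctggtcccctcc
Otor start: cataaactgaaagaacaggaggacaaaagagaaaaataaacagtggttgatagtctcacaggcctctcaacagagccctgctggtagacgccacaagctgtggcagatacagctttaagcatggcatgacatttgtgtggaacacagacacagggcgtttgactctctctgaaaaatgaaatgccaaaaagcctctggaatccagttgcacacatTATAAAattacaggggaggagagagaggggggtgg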

How the data were processed

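Total RNA-seq was made from 2 pools of mouse embryonic facial prominence, with 10 ng of RNA over 200 nucleotides per library, per the labels. The labels name a mirVana extraction and point to a SMARTer Ultra Low RNA manual, and how the cDNA was primed was not settled. Assembly mm10 and annotation M4 are those of the authors, per a text the authors deposited with each library. The sources used here do not give the aligner, the quantification program or the strand setting.

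The deposited tables gave expected counts, TPM, FPKM (not used), posterior mean TPM, the percent of a gene's transcripts on each transcript, and credibility bounds of TPM, recorded here as a score because their level is not stated. Deposited TPM include 97 spike-ins, which took 6.42% and 10.1% of TPM, and 26248 numbered sequences, and levels are printed on that deposited scale. Both were left out of gene counts and TMM ratios, and spike-ins served only as an alternative scale. Names come from GENCODE M21 (GRCm38), with a match for 42462 of 43346 identifiers and all members, 10 at the same version.

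Counts were rounded. TMM factors (0.989 and 1.01) and log2 ratios with a prior count of 2 came from edgeR 4.0.16 in R 4.3.3, for genes that reached 10 counts in each library. The same steps recovered known folds in data simulated with most genes unchanged. That check cannot show whether TMM or spike-ins is the better scale for these pools. The common biological coefficient of variation between the pools was 0.127. DESeq2 1.42.0 gave alternative size factors. Python 3.11.15, pandas 2.3.3 and matplotlib 3.10.9 did the rest. Members are all named, and of each other list the 3 most abundant genes; genes outside this rule (Foxa2, Ihh, Pthlh, Fgfr3, Mmp13, Chad, Fmod, Bglap, Adamts4, Adamts5, Mmp3, Oc90 and the other markers given with values for inner ear, T cell and nasal lists) were chosen after their values were seen. Members and lists were chosen with earlier results of these data known. Lect1 in the matrix list is Cnmd and was left out. The basal epithelium, neuron, Schwann, endothelium, joint and protease lists are given with the observations. A gene is detected at 1 TPM or more. With 1 group there is no test.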

Additional observations from a re-analysis of the deposited data

How the results depend on the processing

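The number of members detected was 29 to 31 under every alternative tried, and their median TPM stayed within 1 SD of 21.2 TPM except with only members at 1 TPM or more, where it was 28.8 TPM. Medians of the members' log2 ratio lay between 0.39 and 0.54 under library totals, DESeq2 size factors, TPM, other count minimums, another prior count and without Matn1 and Otor, the last chosen after seeing the data. Only spike-in scaling turned the median negative, to -0.19, with 2 members 1.5-fold higher and 3 lower. The single member 1.5-fold lower, Col10a1, was lost (0 members) with library totals and with a minimum of 100 counts, and at 2-fold the counts were 2 higher and 0 lower. Counting Col2a1 as the reference in place of the matrix median left 14 members within the same distance. With coding transcripts only, a choice made after seeing the data, the mean of the chain ratios moved beyond the SD to 0.993 for Col9a1 over Col9a2, 2.05 for Col9a3 over Col9a1, 0.221 for Col11a1 over Col2a1 and 0.816 for Col11a2 over Col11a1. Counts over full length gave 2.48 for Col9a3 over Col9a1, and posterior means 0.726 for Col11a2 over Col11a1. Of 33 single levels, 4 moved beyond 1 SD when TPM was rescaled to Ensembl genes and 2 with posterior means, as did 6 of 18 transcript shares with posterior means; the cause was not tested. No paired analysis was possible because the labels give 1 group. Depth limits Col10a1, Ucma, Clec3a and Nkx3-2, which held 6 to 45 counts, and a pair of pools gives no measure of spread between embryos.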

Other observations

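Genes of joints and perichondrium, the layer around cartilage, were all detected (8 of 8). The most abundant were Osr1, a mesenchymal transcription factor gene, at 90.1 ± 6.11 TPM, the fibril-associated collagen gene Col14a1 at 43.3 ± 1.76 TPM and Thbs4 at 32.7 ± 11.99 TPM. None was 1.5-fold higher in replicate 2, against 4.78% of all genes. The 1 gene that was 1.5-fold lower, against 4.31% of all genes, was Thbs4, at 41.2 and 24.3 TPM. Gdf5, the growth factor of joint-forming cells, stood at 1.37 and 1.71 TPM, and Prg4, the lubricin of joint surfaces, at 0.440 and 0.490 TPM. Gdf5 and Prg4 were picked out after their values were seen.

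Proteases and inhibitors that act on cartilage matrix were detected for 7 of 8 genes, Mmp3 being the exception at 0.430 and 0.480 TPM. The membrane metalloprotease gene Mmp14 stood at 198 ± 0.537 TPM, the serine protease gene Htra1 at 96.4 ± 4.81 TPM and the inhibitor gene Timp3 at 65.1 ± 1.62 TPM. Adamts4 and Adamts5, the aggrecan-cutting enzymes, stood at 20.9 ± 0.686 TPM and 6.70 ± 0.877 TPM. None of the 8 reached 1.5-fold in either direction, where 4.78% of all genes were higher and 4.31% lower.

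The 6 markers of basal epithelium had a median ratio of 0.923-fold and ran from 0.861-fold for Krt5 to 1.16-fold for Cdh1. Of these, 2 were higher in replicate 2, against 50.1% of all genes. Endothelium had a median of 0.972-fold. Markers of neurons and of Schwann cells and glia had medians of 1.09-fold and 1.16-fold, and all ratios are relative to the typical gene. The 3 most abundant genes were Krt14 (946 ± 83.6 TPM), Krt15 (931 ± 56.6 TPM) and Krt5 (738 ± 78.4 TPM) for epithelium, and Egfl7 (94.1 ± 9.77 TPM), Pecam1 (34.7 ± 0.431 TPM) and Cdh5 (25.9 ± 0.537 TPM) for endothelium. The neuron list was led by Gap43 (90.4 ± 4.05 TPM), Tubb3 (36.2 ± 2.28 TPM) and Stmn2 (32.8 ± 0.205 TPM), and the Schwann and glia list by Fabp7, Erbb3 (19.8 ± 1.31 TPM) and Sox10 (9.28 ± 0.318 TPM). Fabp7, a fatty acid binding protein gene of glia, was 1.84-fold higher in replicate 2, at 18.6 and 34.3 TPM.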
